A study of Homo sapiens with 2 samples.

Results

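The intergenic control peaks near genes are stretches of open chromatin in untreated 293T cells that lie outside genes but within reach of a promoter. A control peak was a member when its midpoint fell in no protein-coding or lncRNA gene of GENCODE 44 and its nearest edge was more than 1 kb and at most 50 kb from the closest transcription start site (TSS) of such genes. Of the 35515 control peaks on chromosomes 1 to 22, X and Y, 5136 met this rule (14.5%). The rule used position alone, and no accessibility value other than the presence of a control peak entered it.

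The peaks come from ATAC-seq, in which the transposase Tn5 cuts and tags accessible DNA, so that reads pile up over nucleosome-poor sites. 293T cells derive from human embryonic kidney and express the large T antigen of SV40. The question was whether methylglyoxal (MGO), a reactive sugar by-product of glycolysis that forms adducts on histones, changes chromatin accessibility in living cells. The control library was made from 50000 cells that received fresh medium, although 1 deposited label names PBS for them, and the MGO library from 50000 cells given 0.5 mM MGO for 12 h. Both libraries came from the same unedited line. Only 1 library per condition was analysed here, although the peak names of both lists carry the number 2 and further libraries may have been made. No test between the conditions was therefore possible, and an effect of MGO and a difference between these 2 libraries cannot be told apart. As a check of the label, 6 of 7 genes chosen as markers of 293T (VIM, KRT8, KRT18, NEFL, NEFM and PAX2, but not LHX1) had a peak within 1 kb of a TSS in both lists. PTPRC, CD3E, ALB and INS, which are genes of other cell types, had no such peak in either list.

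Open sites between genes are known to include enhancers, which bind sequence-specific factors and act on promoters at a distance, and insulators, which bind the zinc finger protein CTCF and separate chromatin domains. AP-1, a dimer of FOS and JUN family proteins, binds many enhancers and is induced by stress. SP and KLF proteins bind GC-rich boxes, which are frequent in CpG islands. Promoters of genes that produce tRNA and small nuclear RNA also open the chromatin, and these genes are neither protein-coding nor lncRNA genes, so that their promoters can be members.

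The sequences that the motif results refer to are shown first, to let the letters be seen in their context. Each is the plus strand of GRCh38, the lower-case letters are flanking bases and the capitals mark the motif match, which was searched on both strands. For CTCF and AP-1 (TGACTCA), the 150 bases around the only match in the central 400 bp are shown for the strongest member with an overlapping MGO peak and the strongest without one.

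CTCF, overlapped by an MGO peak, upstream of ACSM6, chr10:95183691-95183840: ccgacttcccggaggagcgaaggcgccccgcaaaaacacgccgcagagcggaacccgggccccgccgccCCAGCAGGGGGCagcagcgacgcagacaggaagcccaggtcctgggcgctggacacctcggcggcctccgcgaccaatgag
CTCF, no MGO peak, upstream of SPR, chr2:72862634-72862783: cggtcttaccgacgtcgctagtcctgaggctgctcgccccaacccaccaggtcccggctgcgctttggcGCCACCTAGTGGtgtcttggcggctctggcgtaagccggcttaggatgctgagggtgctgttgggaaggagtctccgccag
AP-1, overlapped by an MGO peak, downstream of GADD45A, chr1:67700834-67700983: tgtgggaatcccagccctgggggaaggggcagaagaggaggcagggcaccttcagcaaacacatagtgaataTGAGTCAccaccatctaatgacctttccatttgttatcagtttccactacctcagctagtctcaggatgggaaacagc
AP-1, no MGO peak, upstream of IBTK, chr6:82260425-82260574: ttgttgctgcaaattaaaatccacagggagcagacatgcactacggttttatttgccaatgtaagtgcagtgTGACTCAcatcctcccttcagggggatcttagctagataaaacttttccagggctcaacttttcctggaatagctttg

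The next 2 sequences are from CpG-rich members, a kind of member that was often still open under MGO, and the capitals mark the SP/KLF box GGGCGG or its reverse complement. They were chosen after the values had been seen, as the strongest such members with and without an overlapping MGO peak, and the 150 bases with the most matches are shown.

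SP/KLF, overlapped by an MGO peak, downstream of ARHGEF4-AS1, chr2:130797952-130798101: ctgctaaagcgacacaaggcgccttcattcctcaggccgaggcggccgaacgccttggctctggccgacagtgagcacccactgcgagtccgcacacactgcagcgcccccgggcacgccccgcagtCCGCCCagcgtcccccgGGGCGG
SP/KLF, no MGO peak, near HS6ST1, chr2:128321940-128322089: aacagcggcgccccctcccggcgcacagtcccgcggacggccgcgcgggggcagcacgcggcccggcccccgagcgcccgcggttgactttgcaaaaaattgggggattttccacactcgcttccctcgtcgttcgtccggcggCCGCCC

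The ACSM6 member had a −log10 p of 18.2 in control and 11.7 in the MGO list, and the GADD45A member 15.2 and 10.5. The SPR member reached 7.98, the IBTK member 12.9 and the HS6ST1 member 12.0 in control, and none of these 3 had a peak under MGO. ACSM6 belongs to the medium-chain acyl-CoA synthetase family, SPR makes tetrahydrobiopterin, GADD45A is a growth-arrest gene induced by DNA damage, IBTK is an inhibitor of the kinase BTK and HS6ST1 sulfates heparan chains. These are the closest genes, and whether a member acts on its closest gene was not measured.

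Most members had no counterpart under MGO. A member was called retained when at least 1 bp of it was covered by any peak of the MGO list. Of the 5136 members, 1449 were retained, which is 28.2% (95% Wilson interval 27.0 to 29.5%), and 3687 were not. The background over all 35515 control peaks was 49.7%, and 53.3% for all control peaks other than members. Members were thus retained less often than the rest by 25.1 percentage points (95% Newcombe interval 23.7 to 26.4). All these intervals cover counting error only and treat peaks as independent. With a −log10 q of at least 2 in both lists, which is the limit the authors applied in their methods, the retained share was 30.2% of members against a background of 59.0%. When only as many control peaks as MGO peaks were used, those of highest −log10 p, it was 45.4% against a background of 70.7%.

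Retained members often kept less of their width. Of the 1449, 1089 were covered by MGO peaks over at least 50% of their length and 360 over less, and the median cover was 69.0%. The MGO list held 2329 peaks that met the same rule, so that the number of such peaks was 0.453 of the control number (exact binomial interval 0.432 to 0.476). The same ratio was 0.394 for distal intronic peaks, 0.573 for intergenic peaks over 50 kb from a TSS and 0.884 for peaks within 1 kb of a TSS, and over all peaks that did not meet the rule it was 0.660 (0.648 to 0.672). The peaks that met the rule covered 3.35 Mb in control and 1.44 Mb under MGO, and their median width was 559 and 505 bp.

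Members stood between distal intronic peaks and TSS peaks in their retained share. Distal intronic peaks, which lie over 1 kb from a TSS inside a gene but outside exons, numbered 10712 and were retained in 20.5% (19.8 to 21.3%). Intergenic peaks over 50 kb from a TSS numbered 3984 and were retained in 28.8% (27.4 to 30.2%). The 14943 peaks within 1 kb of a TSS were retained in 84.6% (84.0 to 85.2%). Members were therefore retained more often than distal intronic peaks by 7.70 percentage points (6.26 to 9.16), and less often than TSS peaks by a wide margin.

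Part of these gaps went with peak strength. The −log10 p of the control peak, the authors' measure of how far a peak stands above background, had a median of 4.38 in members, 4.18 in distal intronic peaks and 8.10 in TSS peaks. Weighted over 20 groups of equal −log10 p with Mantel-Haenszel weights, members exceeded distal intronic peaks by 4.50 percentage points (3.25 to 5.75). With GC content held equal as well, the difference was 2.52 (1.27 to 3.77). Members remained below TSS peaks of the same −log10 p, by −29.2 percentage points (−30.7 to −27.6).

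The comparison with intergenic peaks further from genes depended on how it was made. Over all deposited peaks the difference, members minus the more distant peaks, was −0.55 percentage points (−2.42 to 1.31), and −0.49 (−2.05 to 1.07) at equal −log10 p. It was −5.85 (−7.71 to −4.00) at equal GC content, of which the median was 48.4% in members and 41.5% in the distant peaks. It was −6.94 (−9.66 to −4.23) with a −log10 q of at least 2 in both lists, and −17.2 (−22.8 to −11.6) with at least 5. With genes and TSSs of protein-coding genes only, which moves peaks at lncRNA genes into the intergenic classes, the direction turned to 5.31 (3.69 to 6.94). The numbers therefore give no single order of these 2 intergenic classes.

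Strength separated retained from lost members more than width, GC content or distance did. In quintiles of equal size by −log10 p, the retained share was 5.84, 13.4, 19.7, 32.6 and 69.5% from the weakest to the strongest. The strongest quintile, of 1028 members with a −log10 p from 6.13 upward, exceeded the weakest by 63.6 percentage points (60.3 to 66.6). Retained members had a median −log10 p of 6.07 and a median width of 768 bp, and members that were not retained 4.06 and 497 bp. Even the strongest quintile lost 314 members, and 60 of the 1027 weakest were retained.

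**Figure D1:**
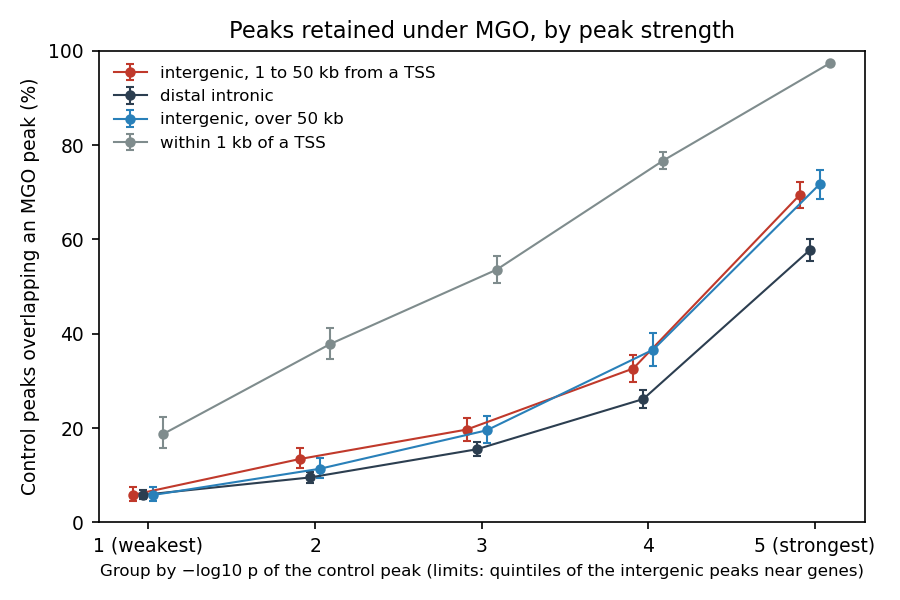
Retained share of control peaks (y axis, %) by group of control −log10 p (x axis; group limits are the quintiles of the intergenic peaks near genes) for 4 classes of control peaks. Points are shares and bars 95% Wilson intervals; members go from 5.84% to 69.5%, close to the distant intergenic peaks (5.81% to 71.7%) and far below the TSS peaks (18.8% to 97.4%).

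TSS peaks were retained most often in every strength group, and distal intronic peaks less often than members in all but the weakest. In the strongest group 69.5% of members, 57.7% of distal intronic peaks, 71.7% of intergenic peaks over 50 kb and 97.4% of TSS peaks were retained. In the weakest group the 3 classes away from TSSs could not be separated, at 5.84, 5.83 and 5.81%, whereas 18.8% of TSS peaks of that strength were retained.

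Over all deposited peaks, members closest to a TSS were retained most often. The share was 37.2% (29.8 to 45.3%) for the 145 members at 1 to 2 kb, 34.7% at 2 to 5 kb, 28.9% at 5 to 10 kb, 28.1% at 10 to 20 kb and 25.9% at 20 to 50 kb. Neighbouring intervals overlap, but members at 1 to 10 kb exceeded those at 10 to 50 kb by 4.74 percentage points (2.05 to 7.48), and by 3.34 (0.99 to 5.68) at equal −log10 p. The interval included 0 with a −log10 q of at least 2 in both lists, where the difference was 3.42 (−0.26 to 7.17), and with at least 5, where it was 5.44 (−2.23 to 13.4). GC content moved with distance, with a median of 53.8% at 1 to 2 kb and 46.5% at 20 to 50 kb, and its part in the difference was not tested. The median distance of a member was 16449.5 bp.

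The state and kind of the nearest gene made no detectable difference. Members upstream of the nearest TSS were retained in 28.1% and members downstream in 28.4%, a difference of −0.38 percentage points (−2.88 to 2.11). The share was 28.2% where the nearest gene was protein-coding and 28.3% where it was a lncRNA gene, a difference of −0.11 (−2.57 to 2.35). Members whose nearest gene had a control peak at a TSS exceeded those whose gene had none by 0.57 (−1.89 to 3.04). Among the 2388 members whose gene had a control TSS peak, the 311 at genes that lost it under MGO were retained in 29.6% and the 2077 at genes that kept it in 28.4%. The interval of this last difference, −6.85 to 3.97 percentage points for kept against lost TSS peaks, includes 0.

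**Figure D2:**
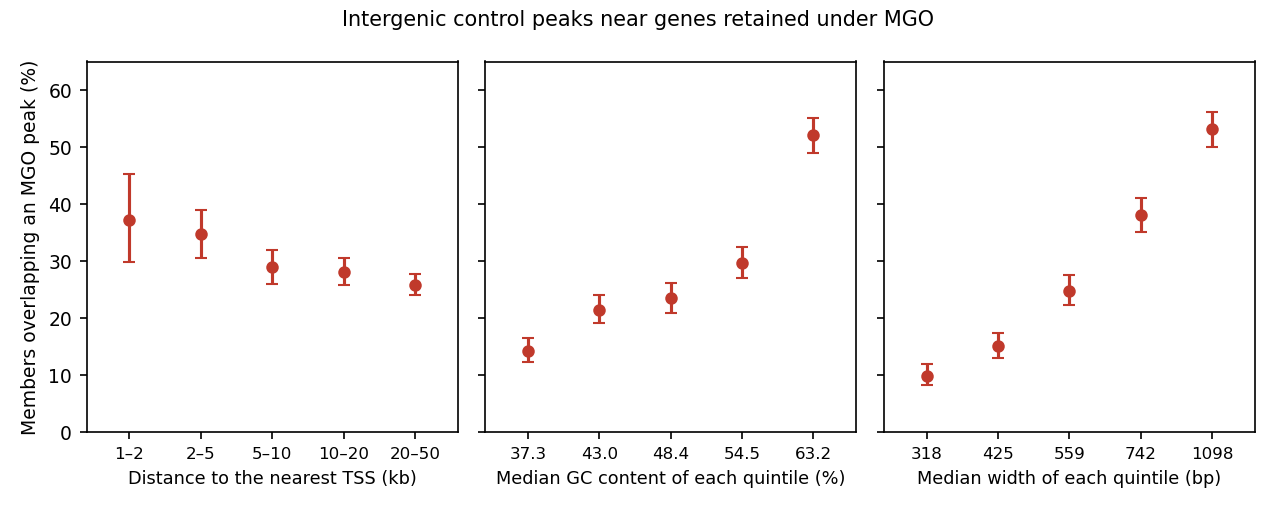
Share of members with an overlapping MGO peak (y axis, %) by distance to the nearest TSS (left), quintile of GC content (middle) and quintile of width (right), with 95% Wilson intervals. The share goes from 37.2% to 25.9% with distance, from 14.3% to 52.0% with GC content and from 9.93% to 53.1% with width.

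GC content and width varied with retention over a wider range than distance did. By quintiles of GC content, from a median of 37.3% to one of 63.2%, the retained share was 14.3, 21.5, 23.5, 29.7 and 52.0%. The highest quintile exceeded the lowest by 37.7 percentage points (33.9 to 41.4), and by 24.6 (20.9 to 28.3) at equal −log10 p. The step between the upper 2 quintiles was the widest. By width the share went from 9.93% in the narrowest quintile to 53.1% in the widest, where a wide peak also has more bases that an MGO peak can touch.

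The high share at high GC content was found mainly in CpG-rich members. These are the 676 members, 13.2% of all, with a GC content of at least 50% and at least 0.6 of the CpG dinucleotides expected from their base composition, as in CpG islands, and they were looked at after the GC values had been seen. Of them 472 were retained, 69.8% (66.3 to 73.2%), against 21.9% (20.7 to 23.1%) of the other 4460. The difference was 47.9 percentage points (44.1 to 51.5), and 29.8 (26.2 to 33.5) at equal −log10 p. The 1578 members with a GC content of at least 50% that were not CpG-rich were retained in 26.2% (24.1 to 28.5%). This was above the 21.9% of all 4460 members that were not CpG-rich, of which they are a part, and far below the CpG-rich ones. CpG-rich peaks were also retained often in other classes, in 63.7% of distal intronic and 65.2% of distant intergenic ones, and in 93.8% at TSSs.

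Without the CpG-rich peaks the gap to distal intronic peaks was smaller and that to distant intergenic peaks wider than over all peaks. Members that were not CpG-rich exceeded distal intronic peaks that were not by 3.61 percentage points (2.19 to 5.05), and lay below the distant intergenic ones, with a difference of −5.13 (−6.99 to −3.27). CpG-rich peaks made up 13.2% of members, 4.86% of distal intronic and 4.54% of distant intergenic peaks.

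The SP/KLF box was more frequent in CpG-rich members, of which 80.8% (77.6 to 83.6%) held it anywhere in the peak, than in the others, of which 17.6% (16.6 to 18.8%) did. It was found in 20.3% of members in the central 400 bp, against 7.17% of windows of 400 bp placed 5 kb to either side, 37.6% of all control peaks and 71.6% of TSS peaks. Members with the box anywhere were retained in 53.3% and members without it in 19.4%, a difference of 33.8 percentage points (30.9 to 36.8), and 22.05 (19.3 to 24.8) at equal −log10 p. Within CpG-rich members, 75.5% (71.7 to 78.9%) of those with the box and 46.2% (37.8 to 54.7%) of those without it were retained, and within the other members 37.9% (34.5 to 41.3%) and 18.5% (17.3 to 19.8%). The box is itself made of G and C, so that the letters and the base composition are not separate measures here.

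CTCF matches were more frequent in members than in most other classes. A match to the core CTCF motif lay in the central 400 bp of 368 members, 7.17% (6.49 to 7.90%), but in 0.18% of the windows 5 kb away, whose median GC content was 42.2% against 48.2% in the members' windows. The share was 4.46% in distal intronic, 3.69% in distant intergenic, 1.44% in TSS and 3.54% in all control peaks. Members exceeded distal intronic peaks by 2.70 percentage points (1.92 to 3.53) and distant intergenic peaks by 3.48 (2.55 to 4.39). The 740 distal exonic peaks were not distinguishable from them, with a match in 48 (6.49%) and a difference of 0.68 (−1.44 to 2.40).

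A difference in retention between members with and without CTCF matches was not detectable. With the whole peak searched, 516 members had a match and 31.2% (27.4 to 35.3%) of them were retained, against 27.9% without. The difference was 3.32 percentage points (−0.74 to 7.64), and 0.67 (−3.03 to 4.36) at equal −log10 p. In the central 400 bp the sign turned, with a difference of −2.88 (−7.26 to 1.98). Among the sequences shown above, the ACSM6 and SPR members carry the motif on opposite strands, and 1 was retained and the other not.

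AP-1 matches were somewhat more frequent in retained members. TGACTCA was present in the central 400 bp of 443 members, 8.63% (7.89 to 9.42%), of 6.17% of the windows 5 kb away and of 6.08% of all control peaks. Members exceeded TSS peaks in this share by 5.37 percentage points (4.58 to 6.22) and distant intergenic peaks by 1.75 (0.64 to 2.84), whereas the difference from distal intronic peaks was 0.24 (−0.67 to 1.19). The same letters written backwards (ACTCAGT), a sequence of equal composition that AP-1 is not known to bind, were present in 4.19% of members and 5.33% of the windows. Anywhere in the peak, 683 members had the AP-1 motif, and 37.8% of these were retained against 26.7% of the others. The difference was 11.0 percentage points (7.23 to 14.9), and 8.93 (5.43 to 12.4) at equal −log10 p. For the backwards letters it was 4.27 (−0.33 to 9.19), and 4.20 (0.0295 to 8.38) at equal −log10 p. The members with the AP-1 motif had a median width of 671 bp and those without it 544 bp. The AP-1 difference was smaller, 5.69 (1.26 to 10.4), in the central 400 bp. It was 4.58 (−0.26 to 9.68) with a −log10 q of at least 2 in both lists and −1.07 (−11.2 to 11.0) with at least 5, and both of these intervals include 0.

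Of the other motifs, several gave differences that were smaller at equal −log10 p. CRE (TGACGTCA), bound by CREB and ATF factors, was present in only 35 members, of which 22 were retained, and ETS (CCGGAAGT) in 51, of which 27 were. At equal −log10 p the differences were 14.4 percentage points (2.18 to 26.7) for CRE and 7.64 (−3.12 to 18.4) for ETS. The E-box CACGTG gave 14.5 (9.97 to 19.2), and 7.84 (3.68 to 12.0) at equal −log10 p. The letters of the E-box and of CRE both contain CpG. Median GC content was 52.6% with and 47.9% without the E-box, and 56.3 and 48.3% for CRE. The part of base composition in these differences was not tested. TEAD gave 4.93 (2.24 to 7.68) and FOX 6.35 (2.65 to 10.2) before strength was held equal, with the whole peak searched. Members with TEAD letters had a median width of 682 bp and those without 516 bp, and for FOX 656 and 545 bp. In the central 400 bp, TEAD was found in 18.6% of retained members and 21.3% of those not retained, and FOX in 9.11 and 9.06%. For the CCAAT box of NFY, CATTCC of TEAD factors, TGTTTAC of FOX factors, ATGCAAAT of POU factors and GATAAG of GATA factors the interval at equal −log10 p included 0. In the central 400 bp, ETS was found in 0.60% of members and 2.53% of all control peaks, CRE in 0.43 and 0.99%, and the E-box in 5.30 and 6.26%. The FOX letters were found in 9.07% of members and 6.99% of all control peaks, GATA in 12.1 and 9.39%, and TEAD in 20.6 and 17.4%. For NFY the shares were 37.8 and 36.3%, and for POU 1.87% in both. Members exceeded TSS peaks in the letters of FOX factors by 6.11 percentage points (5.30 to 6.97), of GATA factors by 7.79 (6.86 to 8.77) and of TEAD factors by 7.73 (6.51 to 8.97). Against distal intronic peaks the differences were −0.9996 (−1.95 to −0.01) for FOX, −2.23 (−3.33 to −1.10) for GATA and 0.73 (−0.59 to 2.08) for TEAD. Against distant intergenic peaks they were −2.17 (−3.44 to −0.92) for FOX, 0.68 (−0.66 to 2.004) for GATA and −3.13 (−4.86 to −1.42) for TEAD. The TEAD letters were often repeated in the distant class, with 4257 matches in the central 400 bp of 944 peaks, against 1325 in 1056 members. The part of such repeats in the TEAD difference was not tested. In all, 12 motifs were compared, the backwards one included. A match is a description of the letters and does not show that a factor was bound.

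**Figure D3:**
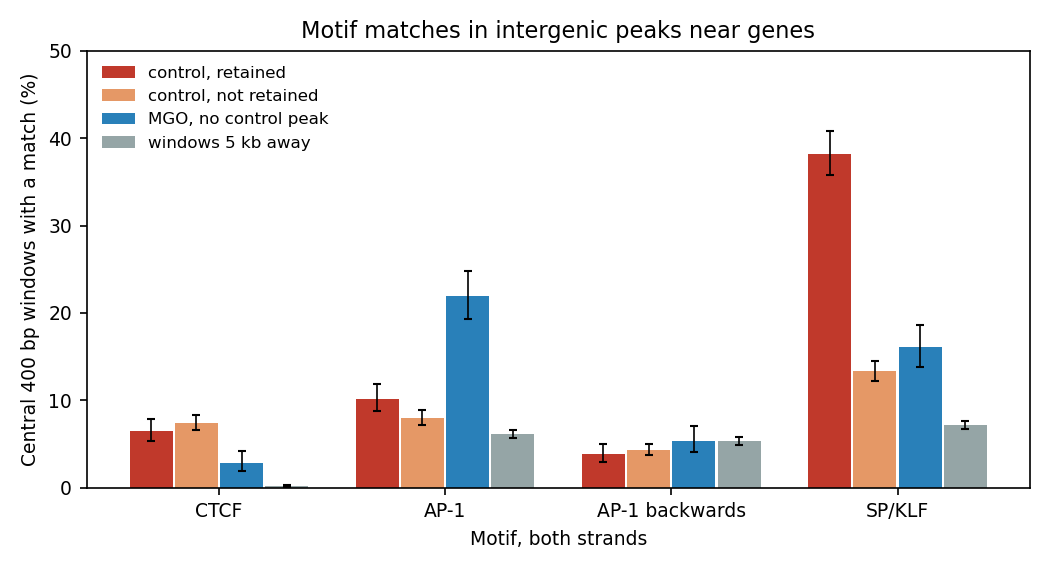
Share of central 400 bp windows with a match to each motif (y axis, %) in retained members, members not retained, MGO peaks that meet the rule without a control peak, and windows 5 kb to either side of members; bars are shares and lines 95% Wilson intervals. AP-1 is at 10.2, 8.0, 21.98 and 6.17% in that order, whereas its backwards letters stay between 3.86 and 5.35%.

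The peaks that appeared under MGO at such positions carried AP-1 matches more often. Of the 2329 MGO peaks that met the rule, 1451 (62.3%) overlapped a control peak and 878 did not. In the central 400 bp, 193 of the 878 held the AP-1 motif, 21.98% (19.4 to 24.8%), against 295 of the 3687 members that were not retained, 8.0% (7.17 to 8.92%). The difference was 14.0 percentage points (11.2 to 17.0). For the backwards letters the difference was 1.04 (−0.44 to 2.84) and for CTCF it was −4.58 (−5.86 to −3.04), with a match in 2.85% of the 878. These peaks were weak and narrow, with a median −log10 p of 3.96 and a median width of 411.5 bp.

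The strongest of these MGO peaks held 10 AP-1 matches. It lies on chromosome 1, 26.3 kb from the nearest TSS, of the lncRNA gene ENSG00000286142, spans 281 bp and had a −log10 p of 43.7. Its whole sequence follows, chosen after the values had been seen, with the AP-1 matches in capitals.

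AP-1, MGO peak without a control peak, chr1:236097111-236097391: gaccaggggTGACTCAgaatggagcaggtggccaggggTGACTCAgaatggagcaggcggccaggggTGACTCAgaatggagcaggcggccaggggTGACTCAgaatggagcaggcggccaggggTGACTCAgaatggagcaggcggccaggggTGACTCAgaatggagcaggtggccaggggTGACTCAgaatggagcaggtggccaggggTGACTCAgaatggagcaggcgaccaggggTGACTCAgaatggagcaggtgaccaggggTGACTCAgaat

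The 10 matches follow one another in 9 steps of 29 bases each, so that the peak lies on a tandem repeat whose unit contains the motif. The second strongest, at 11.2 near HGH1, and the third, at 10.7 near ENSG00000260580, held no AP-1 match.

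Where a member was retained, the MGO peak was usually the smaller one. Of 1444 members paired 1 to 1 with an MGO peak, the MGO peak was narrower in 72.4% (70.0 to 74.6%), with a median ratio of widths of 0.803. Its −log10 p was lower in 73.1% (70.7 to 75.3%), with medians of 6.07 in control and 4.94 under MGO. The fold enrichment over background was lower in 71.2%, with medians of 3.27 and 2.99. The direction was less uniform in distant intergenic pairs, of which 52.8% (49.9 to 55.7%) had a lower −log10 p under MGO, than in members or in distal intronic pairs (70.7%). In pairs within 1 kb of a TSS it was lower in 77.4% (76.7 to 78.2%), and over all 17565 pairs in 74.5% (73.9 to 75.2%), with a lower fold enrichment in 72.3%. The −log10 p of each list depends on that library's own background, so the medians are set side by side without a test.

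**Figure D4:**
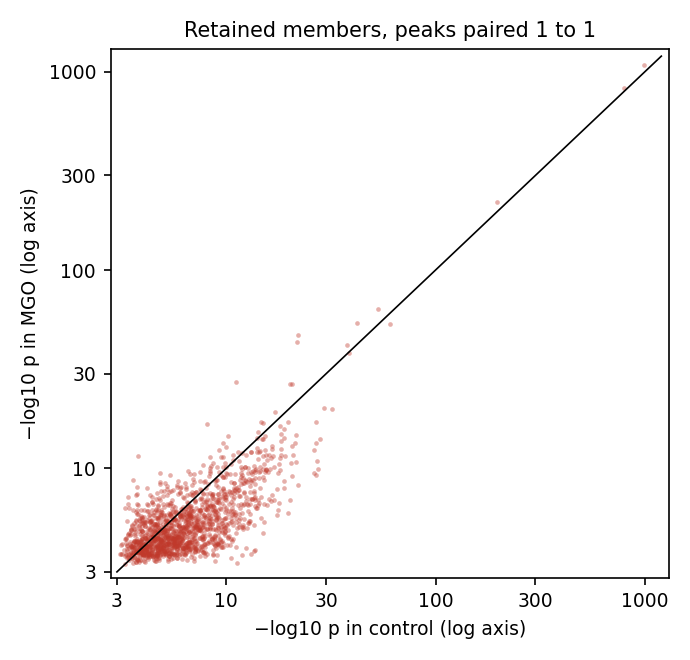
The −log10 p in control (x axis) and under MGO (y axis), both on log axes, for 1444 retained members paired 1 to 1 with an MGO peak, each point being 1 pair and the line marking equal values. Most points (73.1%) lie below the line, and the points of highest −log10 p lie close to it or above it.

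The strongest members were not typical of the rest. All 10 members of highest −log10 p were retained. The first, on chromosome 1 from 629294 to 634575, was also the widest at 5282 bp and had a −log10 p of 989 in control and 1080 under MGO. It covers pseudogene copies of mitochondrial genes, among them MTND1P23, MTND2P28, MTCO1P12 and MTATP6P1. The second, on chromosome 11 from 10508893 to 10509992 and 7.75 kb from the TSS of RNF141, reached 795 and 826, and lies on MTRNR2L8, a copy of a mitochondrial rRNA gene. Mitochondrial reads had been removed by the authors, and the part of any such reads left in these 2 peaks was not tested.

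A further 6 of the 10 lie about 10 kb from the ends of assembled chromosomes on telomere repeats (TTAGGG). The member near ANHX on chromosome 12 held 59 copies in 356 bp and had a −log10 p of 197 in control and 221 under MGO. The members near WASH6P on X and on Y, which share their sequence in the pseudoautosomal region, reached 60.3 and 52.9 in control and 53.5 and 63.8 under MGO. The other 3, near DDX11L2, RPL23AP7 and PGBD2, had values of 42.3, 38.6 and 37.9 in control and 54.1, 38.1 and 42.1 under MGO. At these ends the 2 lists gave similar strengths, with neither list higher throughout. In all, 16 members lay within 50 kb of a chromosome end and 13 of them were retained, and of the 17 members with at least 4 copies of the repeat 14 were.

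The last 2 of the 10 strongest were weaker under MGO. The CpG-rich member near ARHGEF4-AS1, shown above, went from 32.1 to 19.9, and the member near PTGER4P2-CDK2AP2P2 on chromosome 9 from 29.2 to 20.1. The other 2 widest members, of 3308 bp near ENSG00000278903 on chromosome 21 and 3088 bp near HGSNAT on chromosome 8, were retained as well, with a −log10 p of 26.8 and 8.35 in control and 13.4 and 9.49 under MGO.

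The strongest members without an MGO peak were spread over different kinds of genes. The first was again a chromosome end, near LINC01054 on chromosome 13 from 114353849 to 114354314, with 41 telomere repeats and a −log10 p of 19.9. The protein-coding genes nearest to the next ones were DACH1, a transcription factor of eye and limb development, at 13.1, IBTK at 12.9 and NFASC, a cell adhesion protein of axons, at 12.0. The DACH1 member, on chromosome 13 from 71873239 to 71874555, lay 6.04 kb upstream of the TSS. The lncRNA genes were ENSG00000223536 at 16.6, ENSG00000289239 at 13.8, LINC00687 at 13.3, ENSG00000287338 at 12.9 and ENSG00000288034 at 12.0. The member upstream of MIR100HG, a host gene of microRNAs, reached 12.7 and lies on the tRNA gene TRK-TTT2-1. That all 10 had a lower −log10 p than the 10 strongest members follows from the choice, since those were all retained. The CTCF motif was found in none of these 10, against 10.0% of all members with the whole peak searched. A set of 10 is too small for a share.

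Members over short RNA genes were retained far more often than the others. This was looked at after the values had been seen, with tRNA genes of RefSeq (GRCh38.p14) and other genes of GENCODE. Of 81 members over tRNA genes 60 were retained, 74.1% (63.6 to 82.4%), against 27.5% of the other members. The difference was 46.6 percentage points (36.0 to 55.0), and 26.9 (18.1 to 35.7) at equal −log10 p. These members were strong, with a median −log10 p of 6.96, above which lay 14.2% of all members. On chromosome 6, which carries large tRNA clusters, there were 34 of them, of which 24 were retained.

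Few tRNA peaks of other classes away from TSSs were there for comparison. The retained share was 72.0% (52.4 to 85.7%) of 25 distal intronic and 75.0% (46.8 to 91.1%) of 12 distant intergenic peaks over tRNA genes, 2 of 4 distal exonic ones and 98.5% of 66 TSS peaks. Members, however, held more of them, 1.58% against 0.23% of distal intronic and 0.30% of distant intergenic peaks. The strongest, upstream of GPD2 on chromosome 2 from 156400032 to 156401474, covers TRA-CGC3-1 and TRG-GCC2-2 and went from a −log10 p of 26.7 in control to 9.23 under MGO. Next came the member near PLLP, over TRL-CAG2-1 and TRL-CAG2-2, with 17.6 and 9.51, and the member near LINC01549, over TRG-GCC1-5, with 15.5 and 9.78. All 3 were thus retained with a lower value.

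Other short RNA genes lay under fewer members than tRNA genes did, and pseudogenes under more. Of 14 members over snRNA genes 13 were retained, of 5 over miRNA genes all 5, of 5 over snoRNA genes 4, and of 209 over pseudogenes 86, which is 41.1% (34.7 to 47.9%). Without members over any such annotated gene, over a tRNA or further RefSeq gene or near a chromosome end, 4020 members were left, and 25.9% (24.5 to 27.2%) of them were retained. With the peaks removed from the members alone, the difference from distal intronic peaks was 5.36 percentage points (3.82 to 6.93) and 3.57 (2.21 to 4.93) at equal −log10 p, and that from distant intergenic peaks −2.89 (−4.84 to −0.94) and −1.39 (−3.04 to 0.27). With such peaks removed from the distant intergenic class as well, of whose remaining 3385 peaks 28.6% (27.1 to 30.2%) were retained, the difference from it was −2.76 (−4.80 to −0.72), and −1.52 (−3.24 to 0.20) at equal −log10 p. The interval at equal −log10 p thus included 0 in both settings.

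**Figure D5:**
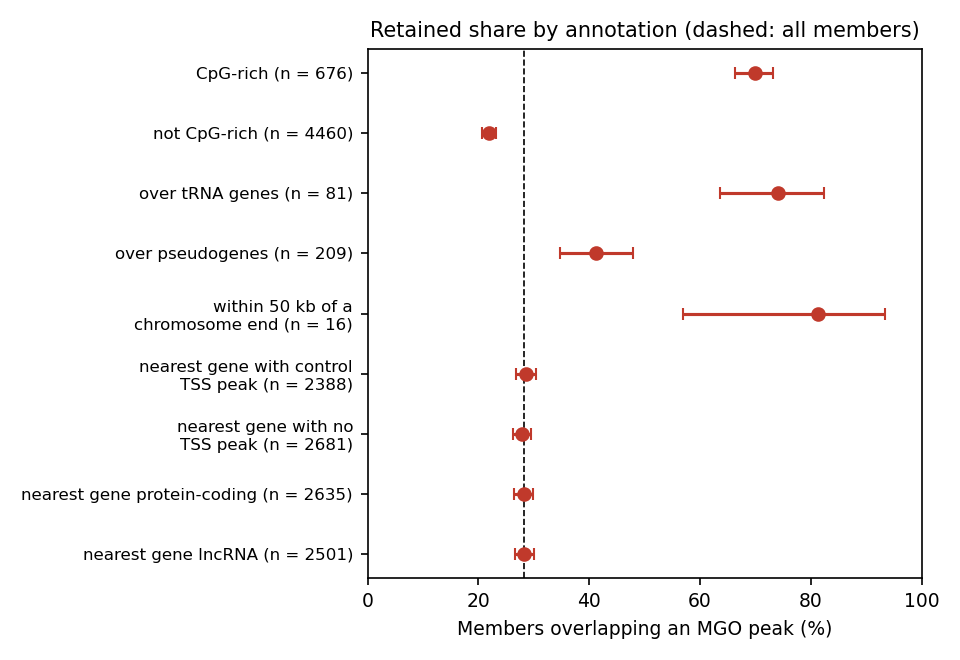
Share of members with an overlapping MGO peak (x axis, %) for groups of members by base composition, genes under the member, position and nearest gene, with the number of members of each group in its label; points are shares, bars 95% Wilson intervals and the dashed line the share of all members (28.2%). CpG-rich members (69.8%), members over tRNA genes (74.1%) and members near chromosome ends lie far to the right, whereas the groups by nearest gene lie on the line.

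Members were scattered over many genes. They had 4153 different nearest genes, and 3355 of these genes were nearest to 1 member each. The most, 6, fell to ARL14, a small GTPase gene on chromosome 3, and to the lncRNA gene ENSG00000289619 on chromosome 18. At ARL14, members lay on both sides of the TSS and 1 of 6 was retained, with a −log10 p of 4.98 in control and 6.62 under MGO. At ENSG00000289619, 3 of 6 were retained, and the strongest had 19.8 and 17.1.

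The 3 genes with 5 members differed among themselves. At CPZ, which encodes carboxypeptidase Z, all 5 lay 2.46 to 28.2 kb downstream of the TSS and 4 were retained, with a −log10 p of 3.51, 7.27, 7.15 and 7.99 in control and 3.74, 4.20, 3.93 and 6.76 under MGO. The first of these was touched by its MGO peak over 0.70% of its length. At PRSS16, a protease gene of the thymus in the tRNA cluster of chromosome 6, 2 of 5 were retained, and 4 of the 5 lay on tRNA genes. At ENSG00000237530 on chromosome 6, 1 of 5 was retained. Members with another control peak within 5 kb were retained in 36.4% (32.1 to 41.0%) and members with none in 27.4%.

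Of all protein-coding and lncRNA genes, 10.7% were the nearest gene of a member, and the lists of stress and metabolic genes are too short to be set against this share. Of the 17 glycolysis genes on the list none was the nearest gene of a member. Of the 10 genes of MGO detoxification, ALDH1A1 had 1, at 1.54 kb upstream with a −log10 p of 4.79, and it was not retained. NRF2 targets had 3, at GCLC, which makes glutathione, and at SRXN1, which repairs oxidised peroxiredoxins, and none was retained. The strongest of them, at SRXN1, had a −log10 p of 4.91.

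Of 12 heat shock genes and of 10 ATF4 targets, 3 each had a member. Of 4 members at heat shock genes 3 were retained, 2 of them at HSPA8, a constitutive chaperone, where the stronger one had 5.78 in control and 3.67 under MGO, and 1 at BAG3. Of 3 at ATF4 targets, those at CHAC1 and DDIT4 were retained and that at ASNS was not. The DDIT4 member, 23.7 kb downstream of this inhibitor of mTORC1, had 11.7 in control and 5.64 under MGO. Among AP-1 genes the only member lay near JUND and was retained, with 5.23 and 3.99. The numbers are too small for a share.

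The lists of transcription factor genes differ in length, with 13 kidney factors, 70 FOX and SOX genes and 514 ZNF genes, of which 3, 13 and 35 had a member. Of 4 members at kidney transcription factor genes 1 was retained, at PAX2, with 6.10 in control and 5.69 under MGO. At FOX and SOX genes 6 of 16 were retained, the strongest at FOXJ2 with 12.7 and 10.0, and at ZNF genes 16 of 40 (26.3 to 55.4%), the strongest at ZNF648 with 21.5 and 14.7. The interval for ZNF genes included the share of all members.

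Members were found on every chromosome analysed, but only 4 on Y, of which 2 were retained. The WASH6P member on Y is among these and shares its sequence with X. Whether reads at the Y members came from other chromosomes was not tested. Among chromosomes with at least 100 members, the retained share was lowest on chromosome 4, with 22.4% (18.2 to 27.3%) of 317, and highest on chromosome 17, with 42.7% (34.4 to 51.5%) of 124. The median GC content of the members was 42.9% on chromosome 4 and 57.0% on chromosome 17, and its part in the difference was not tested. On chromosome 15, with a median GC content of 54.4%, the share was 28.7%.

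The peaks closest to the distance limits, given as a description, had −log10 p values in the range of most members apart from the last one. The control peak just outside the lower limit lay 986 bp from a TSS of ARL14 with a −log10 p of 5.29, and the member just inside 1003 bp from TRIM75 with 3.72. At the upper limit the member near XDH, 49984 bp away, had 4.09, and the peak near SBSPON, 50034 bp away, had 10.5. Only the last of these 4 was retained.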

How the data were processed

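Per the labels and the methods, the authors aligned ATAC-seq reads to GRCh38.p12 with BWA 0.7.15 after bcl2fastq 2.19, discarded mitochondrial and multi-mapping reads using Picard (2.16.0 in the submitters' processing notes), subsampled reads to equal depth and called broad peaks with MACS2 per library outside blacklisted regions. Their consensus peaks rest on the Irreproducible Discovery Rate, which compares replicates, but the lists used here are those of single libraries. The settings of MACS2 are not given in the sources used here. The deposited lists hold 36142 control and 22884 MGO peaks, each with a fold enrichment (a ratio), a −log10 p, a −log10 q and a score, which was not used. All deposited peaks, with q up to 0.0986 and 0.0988, were used. No read count accompanies a peak, and the depth left after filtering and subsampling is not given in the sources used here.

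Positions were compared with GENCODE 44, other genes with RefSeq (GRCh38.p14), and sequences were read from GRCh38. Overlap counted from 1 bp. Shares have 95% Wilson, differences Newcombe and ratios exact binomial intervals, or Mantel-Haenszel weights over 20 groups (5 within members) of equal −log10 p. The weighting was tested on simulated data. Regions and genes named were the 10 strongest members, the 10 strongest not retained, the 3 widest, the 5 genes with most members, the strongest member of each gene list, those at the limits and the sequences shown. The members and lists were chosen with earlier results of these data known. Python 3.11.15, numpy 2.4.6, pandas 2.3.3, scipy 1.17.1 and matplotlib 3.10.9 were used. The planned share of soft-masked bases was not computed, because the genome used here has no soft-masking. The result for 1 further marker gene of another cell type is not reported here.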

Additional observations from a re-analysis of the deposited data

How the results depend on the processing

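Each of the 10 main results was recomputed under other settings, and of the 91 values so obtained 41 stayed within the interval of the main value. The AP-1 difference, whose main interval excludes 0, changed direction in 1 setting. A further 11 values had the opposite sign of a main value whose interval includes 0, namely differences from distant intergenic peaks and CTCF differences. The causes were not tested. The difference from distal intronic peaks was above 0 in every setting tried, and that between the strongest and the weakest quintile too. The retained share was 30.2% with a −log10 q of at least 2 in both lists, 29.5% with at least 5, 17.8% with at least 2 for the MGO peaks alone, 21.2% with at least 50% of the control peak covered, 34.2% with protein-coding genes only, 29.9% within 20 kb, 45.4% with equal numbers of peaks and 25.9% without members over other annotated genes or near chromosome ends.

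The difference from distal intronic peaks was 12.7 percentage points at a −log10 q of at least 5, 6.02 with the limit of 2 on MGO peaks, 13.6 with protein-coding genes, 9.39 within 20 kb, 9.86 with equal numbers and 5.36 without the annotated members. At equal −log10 p it was 8.55, 3.23, 7.36 and 7.00 for the limit of 5, the limit on MGO peaks, protein-coding genes and equal numbers, and 2.52 with equal GC content added. The difference from distant intergenic peaks was −6.94 and −17.2 at the limits of 2 and 5, −3.32 with the limit on MGO peaks, 5.31 with protein-coding genes, −4.58 with equal numbers, −2.89 without the annotated members and −2.76 with such peaks removed from both classes. At equal −log10 p it was −4.16, −13.2, −2.90 and 3.21 for the first 4 of these, −1.37 (−4.00 to 1.27), −1.39 (−3.04 to 0.27) and −1.52 (−3.24 to 0.20) for the last 3, whose intervals include 0, and −3.30 with equal GC content added. With at least 50% of the control peak covered, the difference from distant intergenic peaks was −1.86 (−3.59 to −0.15), and −1.61 (−3.05 to −0.17) at equal −log10 p. Both of these intervals exclude 0, whereas the main ones include it. The settings of equal GC content and of leaving out annotated peaks were added after the data had been seen.

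The strongest quintile exceeded the weakest by 68.5 points at the limit of 5, 54.6 with the limit on MGO peaks, 56.5 with 50% cover, 74.7 with protein-coding genes and 68.8 within 20 kb. The ratio of MGO to control peaks was 0.409 and 0.362 at the limits of 2 and 5, 0.504 with protein-coding genes and 0.909 with equal numbers. The CTCF difference was −2.46 and −4.05 at these limits, −2.51 with protein-coding genes, −1.77 with equal numbers and −2.88 in the central 400 bp. The AP-1 difference was 4.58 at the limit of 2, −1.07 at 5, 6.28 with the limit on MGO peaks, 15.3 within 20 kb and 5.69 in the central 400 bp.

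With 1 library per condition analysed, there was no replicate to leave out and nothing to pair. The depth behind a peak is unknown, so that whether a lost peak was closed or fell under the calling limit cannot be told apart, above all for weak members.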
